A study of Triticum aestivum with 32 samples.

Results

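Adding heat to wheat plants that were already under salt and drought raised 298 gene models and lowered 148 in the flag leaf. The comparison used 8 of the 32 libraries of the study, chosen by their labels alone: 4 from the triple stress of salt, heat and drought, and 4 from salt plus drought. All plants were Stettler, a Canadian red spring bread wheat, grown in pots in greenhouses and treated from what the labels call spike initiation, Feekes stage 8, with flag leaves studied during grain filling. Pots of both groups were held at 40% of field capacity and watered with sodium chloride raised from 20 through 40 to 80 mM. The salt plus drought pots stood in a greenhouse with a day temperature of 24 °C and a night temperature of 18 °C. The triple stress pots stood in another greenhouse, heated to 30 °C each day between 9 am and 3 pm and otherwise kept like the first. Heat and greenhouse therefore cannot be told apart. The other 24 libraries came from control, drought, heat, salt, heat plus drought, and salt plus heat, with 4 each. Control, drought, heat, and heat plus drought plants got no salt, and control, heat, salt, and salt plus heat pots were kept at 100% of field capacity. All groups with heat shared the heated greenhouse. The submitters describe the replicates as biologically independent, and whether a library holds 1 plant or several is not given in the sources used here.

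Heat unfolds proteins and loosens membranes, and plant cells answer through heat shock transcription factors that switch on genes for chaperones. These genes are close to silent in unstressed leaves. Drought and salt both withdraw water from the cell, and salt adds toxic sodium. Leaves respond to them largely through the hormone abscisic acid, which closes stomata and so also removes the cooling that transpiration gives a hot leaf. The flag leaf supplies much of the sugar for the filling grain. Bread wheat is hexaploid, so most genes have copies on the A, B and D subgenomes, and the letter in each identifier names the subgenome.

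The identifiers in the deposited table carried no gene names, and none of them occurred in a RefSeq gene table of a later wheat assembly. Gene functions are therefore not given, lists of heat shock or photosynthesis genes could not be formed, and the leaf label could not be checked against marker genes. For the same reason at most 2 gene models are named in each direction of a comparison, with exceptions stated where they occur. Levels are in TPM, a unit in which reads are divided by transcript length and each library is scaled to the same total. TPM keep no record of read depth, so the depth behind each value is unknown.

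The 8 libraries were alike in overall makeup. Between 50717 and 53517 gene models reached 1 TPM, and the 100 most abundant took 17.4% to 24.2% of all TPM, with overlapping ranges in the groups. Low confidence gene models, whose identifiers end in LC, held 9.06% to 9.75%. Triple stress replicate 1 stood farthest from its group: 2571 tested gene models differed from the mean of its other 3 libraries by 2-fold or more, against 894 to 1308 for the other 7 libraries. Over all tested gene models, the median log2 difference of a library from the other 3 of its group ran from -0.096 to 0.183. Windows of 50 neighbours were formed from high confidence gene models averaging at least 5 TPM over all 32 libraries. With each library's own median difference taken off, the window medians ran from -0.18 to 0.15 over the 8 libraries.

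Some gene models set the libraries apart in another way. Of the 298 raised, 18 fell when heat was added to salt or to unstressed plants. They were 13 under salt and 9 in unstressed plants, with 4 of them in both. Over all tested gene models, heat lowered 0.663% under salt and 0.755% in unstressed plants. In most of these 18 the heat, salt plus drought, and salt plus heat groups were low together. Salt plus drought lay below the model's overall mean in all 18, and heat and salt plus heat in 16 each. Control lay below it in 6, and salt and the triple stress in 0. The lowest group mean over these models was that of heat, at a median of 0.65 log2 below each model's overall mean, and the highest was the triple stress, 0.61 above it. The 18 were picked by their changes with heat, which fixes much of this layout for all groups but drought and heat plus drought. Heat plus drought lay below the overall mean in 2 of the 18, and drought in 8. In the other 280 rises heat plus drought lay below it in 19 and drought in 253. A high level in heat plus drought was thus not particular to the 18. The labels record no sequencing run, and whether a property of the libraries other than treatment goes with this pattern was not tested. Without these 18, 280 rises remain.

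Of 269428 gene models in the table, 52183 had at least 1 TPM in 4 or more of the 8 libraries and were tested. Of these, 446 passed a limma adjusted p of 0.05, which is 0.855%. The 298 rises were 0.571% and the 148 falls 0.284% of those tested. The rises were 2-fold or more in 169 gene models and 4-fold or more in 40, the falls in 80 and 8. The median change of all tested gene models was 0.02 on the log2 scale, so the comparison was close to balanced. The median rise was 1.07 and the median fall -1.04. In 295 of the 298 rises all 4 triple stress libraries lay above all 4 salt plus drought libraries, as they did for 6.79% of all tested gene models. In 146 of the 148 falls they lay below, as they did for 4.57%. At the threshold, the last gene model called had an adjusted p of 0.0499 and a log2 change of 0.58, and the first not called 0.0501 and 0.60.

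**Figure D1:**
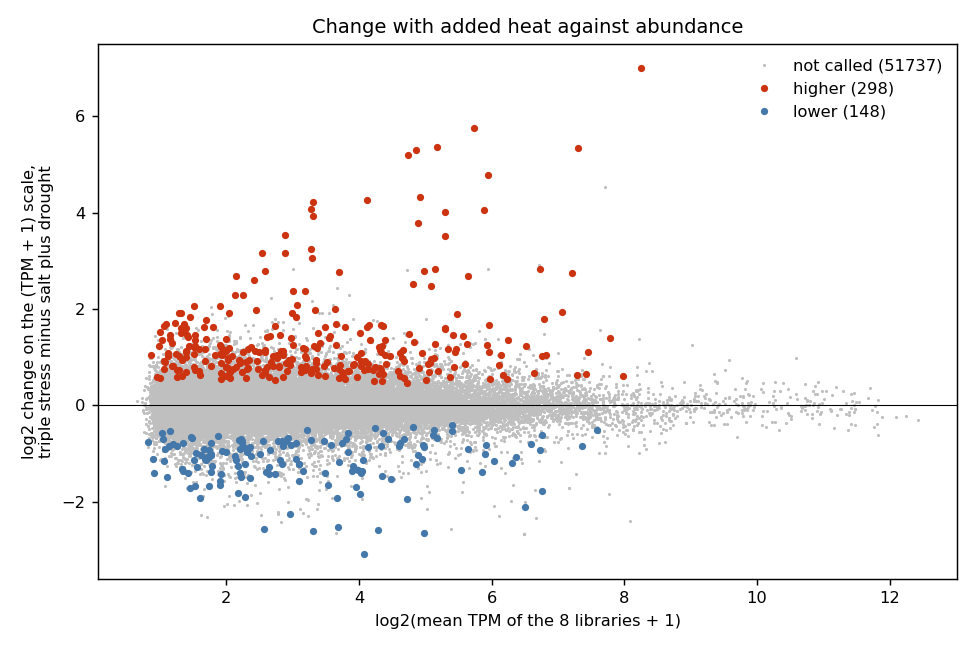
Log2 change with added heat (triple stress minus salt plus drought, log2(TPM + 1) scale) against the log2 mean TPM + 1 of the 8 libraries, 1 point per tested gene model. The 298 gene models called higher reach a log2 change of 6.998, while the 148 called lower end at -3.10.

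The number of calls depended on which libraries were in the fit. Without salt plus drought replicates 1, 2 and 4 the 446 became 257, 278 and 210, and without triple stress replicates 1, 3 and 4 they became 211, 263 and 257. A model of these 8 libraries alone gave 850 rises and 453 falls and kept 270 of the 298 rises and 123 of the 148 falls.

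TraesCS4D02G134900, on chromosome 4D, showed the largest rise. In salt plus drought replicates 1 to 4 it stood at 2.17, 3.77, 10.04 and 1.1 TPM, and in the triple stress at 1016.48, 316.27, 534.30 and 541.19 TPM. Every heated library was thus far above every unheated one, and replicate 1 was the highest. The means were 4.27 ± 4.0 and 602 ± 295 TPM (SD, n = 4), a log2 change of 6.998 (SE 1.08, limma adjusted p = 0.000444). Without heat it was low in all backgrounds, with group means of 2.84 to 5.0 TPM. With heat it averaged 266 ± 194 TPM under drought and 337 ± 417 TPM under salt (SD, n = 4). Heat alone was uneven, with 0.35, 26.54, 1.5 and 256.08 TPM in replicates 1 to 4, and its change from control did not pass the test (log2 1.75, limma adjusted p = 0.58).

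TraesCS5D02G266000, on 5D, had the smallest p among the named rises. It was close to silent in salt plus drought, at 0.91, 0.77, 1.14 and 0.87 TPM, and reached 113.60, 78.37, 116.13 and 105.99 TPM in the triple stress. The groups were wide apart and each was tight. Of the salt plus drought libraries only replicate 3 reached 1 TPM. The model was thus tested only because the triple stress was high, which largely fixed the direction of its change. Its log2 change was 5.75 (SE 0.41, limma adjusted p = 7.2e-10). It also rose with heat under drought (log2 5.76), under salt (6.05) and in plants without salt or drought (2.98), each past the threshold. The last of these rises was smaller than the one under salt plus drought by 2.77 (limma adjusted p of the difference = 0.0309). Heat replicates 1 and 3 held 3.24 and 4.96 TPM of it and replicates 2 and 4 held 26.94 and 28.50 TPM, the same pairs as for TraesCS4D02G134900.

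TraesCS4A02G106000, on 4A, showed the largest fall. It stood at 26.53, 43.31, 26.44 and 18.76 TPM in salt plus drought and at 4.89, 3.36, 0 and 3.78 TPM in the triple stress. All heated libraries were below all unheated ones, and replicate 3 was listed at 0. The log2 change was -3.10 (SE 0.61, limma adjusted p = 0.00667). Heat plus drought averaged 24.8 ± 10.9 TPM and salt plus heat 28.6 ± 7.97 TPM (SD, n = 4), so the other heated combinations were not low. Drought alone held 1.92 and 2.16 TPM in replicates 1 and 2 and 24.09 and 20.83 TPM in replicates 3 and 4, and control replicate 3 held 4.71 TPM, below triple stress replicate 1. Low values thus also occurred in 2 unheated groups.

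TraesCS5B02G407800, on 5B, stood at 71.55, 30.76, 23.75 and 88.42 TPM in salt plus drought and at 4.95, 3.11, 8.94 and 12.70 TPM in the triple stress. The groups did not overlap, but the unheated values spread widely. The log2 change was -2.65 (SE 0.63, limma adjusted p = 0.0362). The call was lost without salt plus drought replicate 1, 2 or 4 or triple stress replicate 1, 2 or 3, with adjusted p of 0.0559 to 0.169 and log2 changes of -2.84 to -2.34. Heat plus drought and salt plus heat averaged 11.7 ± 8.61 and 16.9 ± 11.9 TPM (SD, n = 4).

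**Figure D2:**
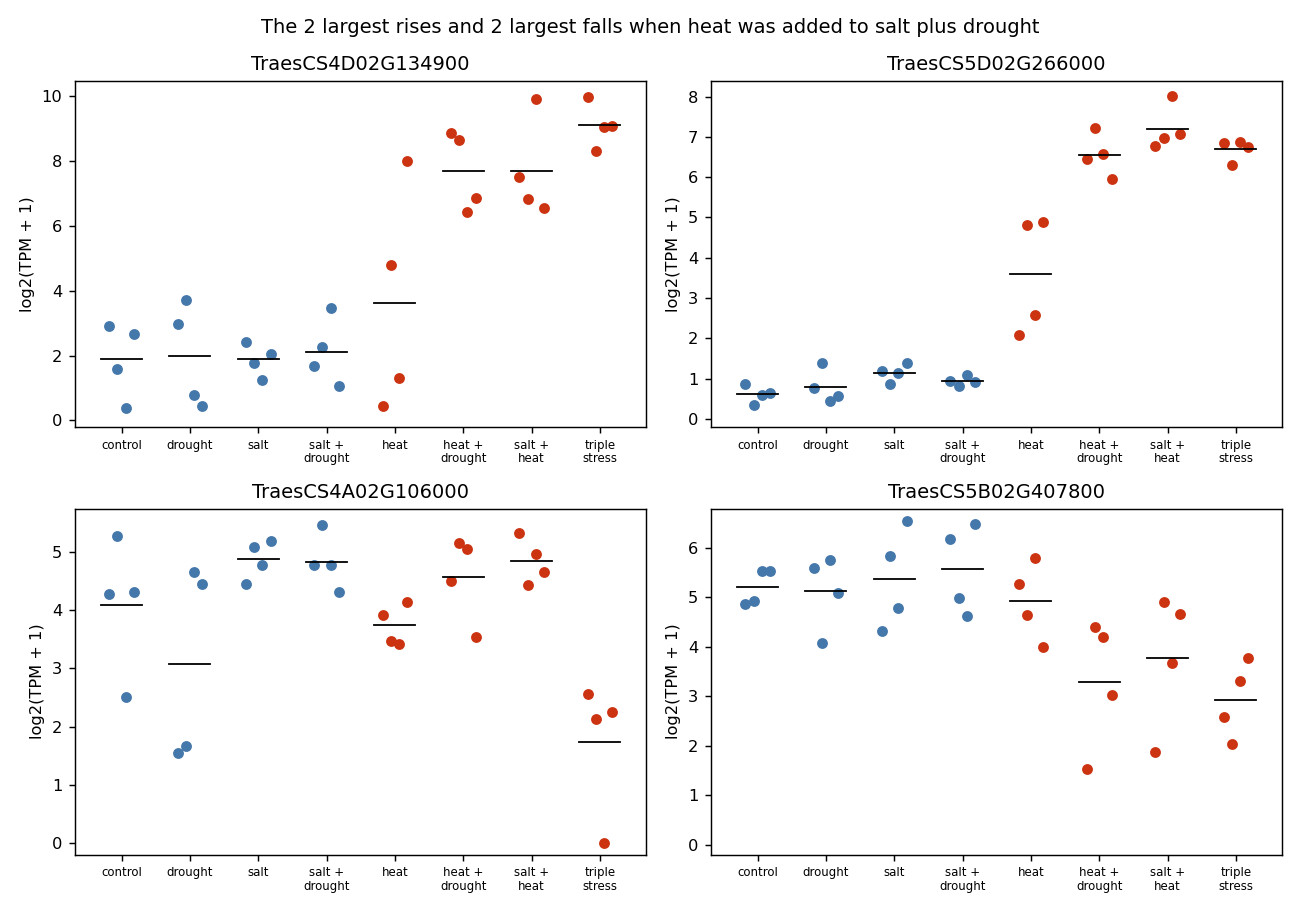
Log2(TPM + 1) of the gene models with the 2 largest rises and the 2 largest falls chosen for naming, 1 point per library in replicate order and a line at the group mean of the 4, unheated groups in blue and heated in red. TraesCS5D02G266000 is high in every heated combination and lower in heat alone, while TraesCS4A02G106000 is low in the triple stress, in 2 drought libraries and in control replicate 3.

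In 12 gene models all 4 salt plus drought libraries were under 1 TPM and all 4 triple stress libraries at 5 TPM or more. These 12 were chosen by the values compared and passed the filter through the triple stress alone, so that all 12 were called follows from the choice. They were of high confidence, with triple stress means of 6.28 to 55.5 TPM and salt plus drought means of 0 to 0.838 TPM. Heat also raised 11 of the 12 in all 3 other backgrounds, as it did 206 of the 52183 tested. No gene model showed the reverse pattern at these levels. With 1 TPM as the lower bound of the high group, 167 gene models appeared, of which 54 were called, and 111 disappeared, of which 16 were called.

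The raised gene models took a small part of the leaf's messenger RNA. They summed to 0.304% to 0.355% of TPM in salt plus drought and 0.812% to 1.02% in the triple stress. The lowered ones summed to 0.332% to 0.387% and then 0.151% to 0.181%. These gene models were picked for differing, so the sums only give the scale. Among gene models averaging 100 TPM or more over the 8 libraries, 13 of 1167 rose, to triple stress means of 144 to 602 TPM, and 5 fell, from salt plus drought means of 130 to 227 TPM. Among those under 5 TPM, 115 of 26412 rose and 65 fell.

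Rises and falls were spread over the subgenomes. On A, B and D, 93 of 16835, 102 of 17464 and 100 of 17058 tested gene models rose, or 0.552%, 0.584% and 0.586%, and 44, 50 and 49 fell. By chromosome the share that rose ran from 0.425% on 1A to 0.826% on 4B. Of 10296 low confidence gene models tested, 35 rose (0.340%) and 14 fell (0.136%), against 263 (0.628%) and 134 (0.320%) of 41887 of high confidence. The D subgenome held 34.4% ± 0.0690 of all TPM in salt plus drought and 34.2% ± 0.0403 in the triple stress (SD, n = 4), with ranges of 34.4% to 34.5% and 34.1% to 34.2% that did not overlap. The ranges of the A subgenome, 32.56% to 32.94% and 32.5% to 33.06%, overlapped, as did those of B, 30.66% to 31.03% and 30.77% to 31.17%.

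Most raised gene models stood alone along the chromosome. Among tested high confidence gene models in the order of their numbers, 20 of the 262 placed rises lay in 8 runs of neighbours that all rose, and 2 of 133 falls lay in 1 run, TraesCS6B02G276700 and TraesCS6B02G276800. The longest run lay on 3B, where all 6 tested gene models from TraesCS3B02G130300 to TraesCS3B02G131300 rose, and 5 further high confidence models in that span were below the filter. All 6 were under 1 TPM in every salt plus drought library and so were tested only because the triple stress was high, which fixed the direction of their change. The 6 had salt plus drought means of 0 to 0.52 TPM and triple stress means of 2.89 to 17.7 TPM, with log2 changes of 1.92 to 4.21.

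Summed over the 6, the 3B run stood at 0.35, 1.26, 1.41 and 0.72 TPM in salt plus drought and at 65.74, 47.93, 67.53 and 71.24 TPM in the triple stress. No unheated library of the study exceeded 1.41 TPM. The sums averaged 117 ± 49.0 TPM in heat plus drought, 158 ± 81.4 TPM in salt plus heat and 29.0 ± 24.0 TPM in heat alone (SD, n = 4). Salt plus heat replicate 1, at 36.92 TPM, lay below all triple stress libraries and the other 3, at 187.76 to 213.90 TPM, above them. All 6 rose with heat under salt and under drought, and 5 rose with heat alone. Over all tested gene models, heat raised 1.99% under salt, 7.48% under drought and 0.632% without either. Neighbours of this kind can be near-identical copies, and the authors' software divides shared reads by estimate, so the sum is firmer than the values of single members.

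The other heat comparisons asked whether the same gene models responded to heat where salt or drought or both were absent. They share no library with the salt plus drought comparison, though all rest on the same pooled estimate of spread. Heat called 3905 gene models higher and 247 lower under drought (7.48% and 0.473% of those tested, 7.96% together), 1036 and 346 under salt (1.99% and 0.663%, 2.65% together), and 330 and 394 without salt or drought (0.632% and 0.755%, 1.39% together). Median changes of all gene models were 0.26, 0.13 and -0.08 on the log2 scale. With all libraries forced to 1 common distribution by quantile normalisation, the counts were 1280 and 905, 1141 and 1201, and 730 and 601.

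These counts also moved with single libraries. Without control replicates 1 to 4, heat alone called 444, 458, 1317 and 446 gene models in place of 724. Falls outnumbered rises with all libraries, while without control replicates 1, 2 and 4 there were 255, 256 and 265 rises and 189, 202 and 181 falls. The 4152 calls under drought became 2569, 1365 and 1848 when drought replicates 1, 3 and 4 were left out in turn. Leaving out heat plus drought replicates 1, 2 and 4 gave 1314, 2286 and 1796. Without salt replicate 1 the 1382 calls under salt became 828. Models of the compared groups alone gave 140 calls without salt or drought, 5261 under drought and 393 under salt.

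Of the 298 gene models raised under salt plus drought, heat also raised 178 under drought, 150 under salt and 111 without either, or 59.7%, 50.3% and 37.2%. As shares of the other lists these were 4.56%, 14.5% and 33.6%. In 108 the rise was called in all 4 backgrounds, against 206 of all 52183 gene models that rose in the 3 other backgrounds, and in 114 in salt plus drought and in none of the other 3. The sign of the change was the same in all 3 other backgrounds for 208 of the 298 (69.8%), against 23.5% of all tested gene models with positive changes in all 3. After quantile normalisation 756 gene models rose under salt plus drought, of which 286, 263 and 224 also rose under drought, under salt and without either.

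Of the 148 lowered gene models, heat also lowered 35 under drought, 55 under salt and 38 without either, or 23.6%, 37.2% and 25.7%. In 13 the fall was called in all 4 backgrounds, against 38 of all 52183 that fell in the 3 others, and 68 were lower in salt plus drought with no call in the other 3. Signs nonetheless matched in all 3 other backgrounds for 106 of the 148 (71.6%), against 7.69% of all tested gene models. Median changes of the 148 were -0.32, -0.62 and -0.50 in these backgrounds, against -1.04 in the comparison that chose them. Choosing gene models by a threshold in 1 comparison by itself favours larger values there.

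**Figure D3:**
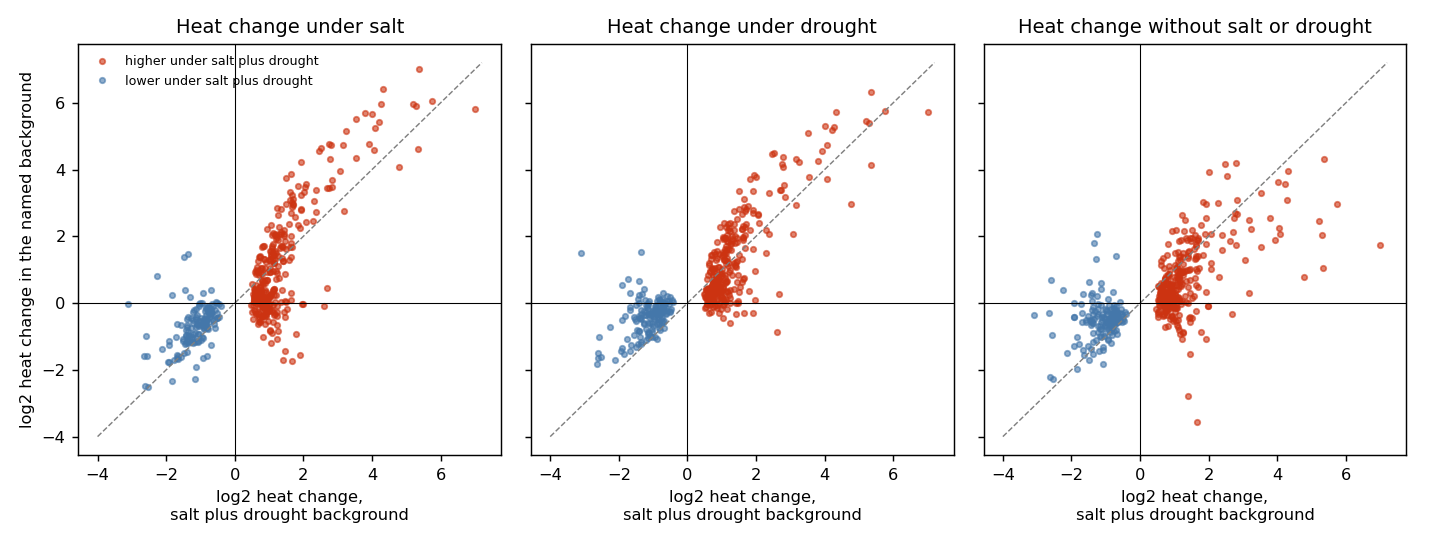
Log2 heat change of the 446 called gene models under salt, under drought and without salt or drought (vertical axes) against their log2 heat change under salt plus drought (horizontal axes), raised in red and lowered in blue, with a dashed line of equality. Of the 298 raised, 224 lie above 0 under salt, 273 under drought and 232 without either, and the rest lie at or below 0.

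The median level of the 298 raised gene models was lower in heat alone than in the heated combinations. Relative to the salt plus drought mean, it was 1.002 to 1.14 on the log2 scale in the triple stress, 0.84 to 0.89 in heat plus drought and 0.67 to 1.12 in salt plus heat. In heat alone it was 0.16, 0.55, 0.25 and 0.56 in replicates 1 to 4. Heat replicates 1 and 3 also had low medians over all 52183 gene models, -0.55 and -0.33, against -0.04 and -0.02 in replicates 2 and 4, and the part of this in the lower values was not tested. All 16 unheated libraries lay between -0.33 and 0.20, a range that held heat replicate 1. Salt plus heat replicate 3, at 1.12, reached into the range of the triple stress, so these groups overlapped. The range of heat plus drought lay inside that of salt plus heat. The 148 lowered gene models had medians of -1.12 to -0.90 in the triple stress, -0.71 to -0.49 in heat plus drought, -0.94 to -0.61 in salt plus heat and -0.62 to -0.43 in heat. Control, salt and drought libraries lay between -0.42 and 0.07. Triple stress and salt plus drought libraries were used to choose the gene models, and their places are a description only.

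**Figure D4:**
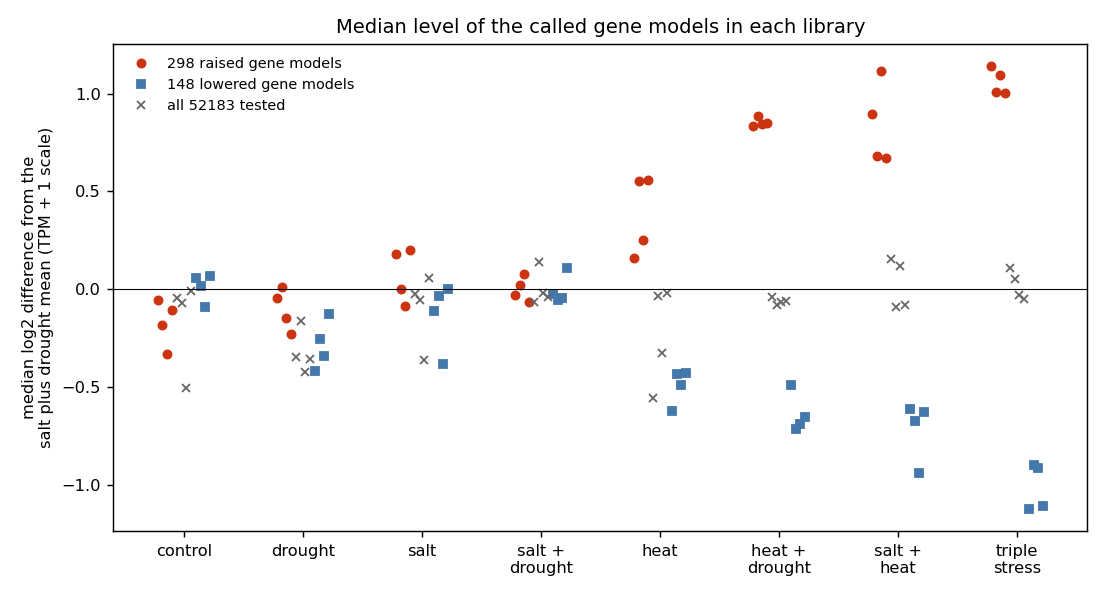
Median log2 difference from the salt plus drought mean, on the log2(TPM + 1) scale, of the 298 raised and 148 lowered gene models and of all 52183 tested, 1 mark per library of the 8 groups. The raised medians of heat alone, 0.16 to 0.56, lie below those of the heated combinations. The lowest of them, heat replicate 1, lies below salt replicates 1 and 4, at 0.18 and 0.20.

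Tests of the difference between heat changes asked whether the response under salt plus drought was larger or smaller than elsewhere. Compared with heat under salt, 84 gene models had a higher and 37 a lower change (0.161% and 0.0709% of 52183, 0.232% together). Compared with heat in plants without salt or drought, 85 were higher and 51 lower (0.163% and 0.0977%, 0.261% together), and compared with heat under drought 1 was higher and 21 lower (0.00192% and 0.0402%, 0.0422% together). The median difference of all gene models was -0.12, 0.10 and -0.24 in this order, and calls in a direction are best read against it. Median-of-ratios scaling gave 198 higher and 104 lower, 75 and 78, and 21 and 22, and quantile normalisation gave 304 and 123, 88 and 81, and 14 and 25. The balance of directions in the last pair of comparisons thus followed the scaling. Of the 298 raised gene models, 40 were called as differing from heat under salt, and the change under salt plus drought was the higher one in 33 of them. The like counts were 40 of 42 without salt or drought and 1 of 3 under drought. The 298 were chosen for a high change under salt plus drought, and that change is part of each difference. The choice by itself thus favours a higher change there, and these counts are a description only.

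Single libraries moved these counts as well. The 121 calls against heat under salt became 43 when salt replicate 1 was left out and 76 when salt replicate 4 was. Leaving out salt plus heat replicate 2 gave 78 and replicate 4 gave 50. Leaving out salt plus drought replicates 1, 2 and 4 in turn gave 72, 41 and 55, and leaving out triple stress replicates 3 and 4 gave 58 and 37. The 136 against heat without salt or drought became 73 and 81 without control replicates 1 and 4, 78, 83 and 83 without salt plus drought replicates 1, 2 and 4, and 88 and 73 without triple stress replicates 3 and 4.

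The 22 calls against heat under drought moved with nearly every library. They became 5, 0, 8 and 62 without drought replicates 1 to 4, 1, 6, 11 and 1 without heat plus drought replicates 1 to 4, 2, 4 and 0 without salt plus drought replicates 1, 2 and 4, and 6, 13, 2 and 0 without triple stress replicates 1 to 4. In the limma fits with 0 calls, 8413 gene models had an unadjusted p under 0.05 without drought replicate 2, 5791 without salt plus drought replicate 4 and 5271 without triple stress replicate 4.

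The low confidence model TraesCS5B02G408700LC, on 5B, changed in opposite directions with heat. Under salt plus drought it rose from 32.62, 21.16, 34.13 and 25.84 TPM to 84.45, 58.22, 123.55 and 110.81 TPM (log2 change 1.66, SE 0.27, limma adjusted p = 0.000682). Under salt it fell from 75.2 ± 5.68 to 22.4 ± 6.73 TPM, and without salt or drought from 92.3 ± 28.7 to 6.95 ± 2.20 TPM (SD, n = 4). The differences in log2 change were 3.40 and 5.22 (limma adjusted p = 4.17e-05 and 2.28e-09). The difference of 1.96 from heat under drought was called (adjusted p = 0.0452), but the call was lost in 14 of 16 fits that left out 1 library. This model is among the 18 gene models above and was low in heat, salt plus drought and salt plus heat together.

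TraesCS4A02G438500, on 4A, and the low confidence model TraesCS4A02G458800LC, also on 4A, had the same layout and belong to the same 18. TraesCS4A02G438500 stood at 3.17, 1.81, 1.77 and 2.21 TPM in salt plus drought and 11.99, 5.66, 15.77 and 13.34 TPM in the triple stress. Under salt it fell with heat from 9.22 ± 0.367 to 2.57 ± 0.785 TPM (SD, n = 4), a difference in log2 change of 3.45 (limma adjusted p = 0.00128). TraesCS4A02G458800LC rose from 3.26 ± 0.277 to 10.4 ± 1.67 TPM under salt plus drought and fell from 10.1 ± 5.12 to 0.55 ± 0.638 TPM without salt or drought (SD, n = 4), a difference of 4.19 (limma adjusted p = 1.01e-05).

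TraesCS4B02G206700, on 4B, fell with heat under salt plus drought and rose with it in each of the other backgrounds. It stood at 52.17, 59.13, 73.19 and 71.50 TPM in salt plus drought and at 36.17, 10.69, 34.02 and 25.52 TPM in the triple stress, below every library with another heat treatment. Its log2 change was -1.35 (limma adjusted p = 0.0393), against 1.52 under drought, 1.47 under salt and 1.79 without either, all called. The differences were -2.88, -2.83 and -3.14 (limma adjusted p = 0.0276, 0.0048 and 0.000849). The first lost its call without drought replicate 2, heat plus drought replicate 1 or 4, salt plus drought replicate 4 or triple stress replicate 4, with adjusted p of 0.0708 to 0.126.

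TraesCS7D02G249800, on 7D, fell from 3.81, 4.84, 7.41 and 5.52 TPM to 1.92, 1.46, 1.40 and 1.72 TPM with added heat (log2 change -1.26, limma adjusted p = 0.0465) and rose with heat without salt or drought from 1.53 ± 0.381 to 10.1 ± 4.18 TPM (SD, n = 4). The difference was -3.34 (limma adjusted p = 0.000233). Under salt it averaged 5.14 ± 2.93 TPM without heat and 1.75 ± 0.733 TPM with it (log2 change -1.09, limma adjusted p = 0.0559). The differences from heat under salt and under drought, -0.17 and -1.67, were not called (limma adjusted p = 0.93 and 0.152). TraesCS1D02G357200LC, on 1D, rose from 4.09 ± 3.58 to 77.7 ± 31.7 TPM with heat alone, and stood at 13.4 ± 5.08 and 20.5 ± 5.63 TPM in salt plus drought and the triple stress (SD, n = 4), a difference of -3.64 (limma adjusted p = 0.0156). Its change under salt plus drought was not called (limma adjusted p = 0.748). Heat also raised it under salt (log2 2.06) and under drought (2.27), and the differences from these were not called (limma adjusted p = 0.507 and 0.342). The call of -3.64 was lost with a pseudocount of 0.1 TPM, in a model of the compared groups alone and with a replicate block by title number.

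**Figure D5:**
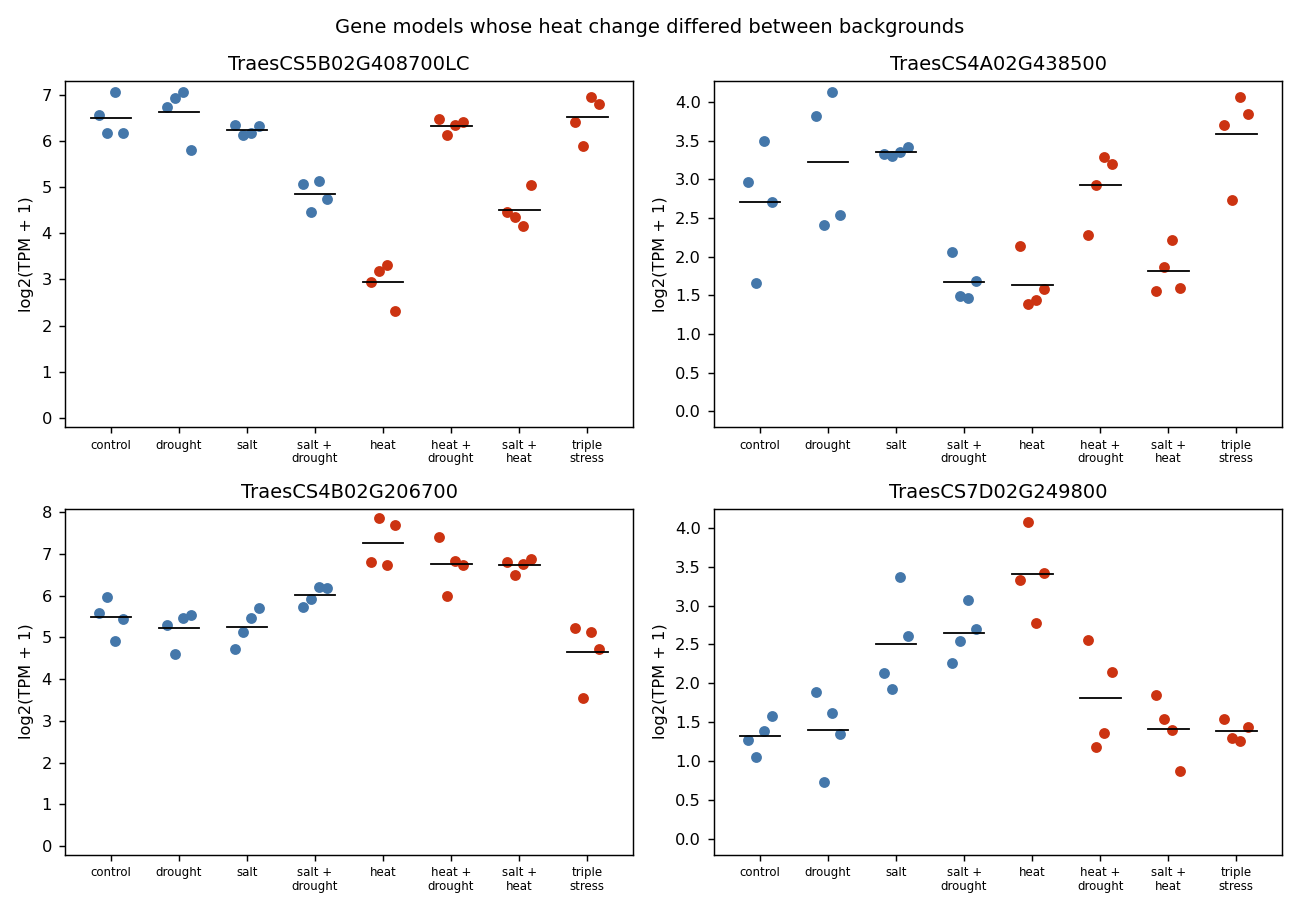
Log2(TPM + 1) of 4 gene models whose heat change differed between backgrounds, 1 point per library in replicate order and a line at the mean of the 4, unheated groups in blue and heated in red. TraesCS5B02G408700LC and TraesCS4A02G438500 are low in salt plus drought, heat and salt plus heat, and TraesCS4B02G206700 is low in the triple stress and high in the other heated groups.

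TraesCS2A02G394900 and TraesCS2D02G392900, on 2A and 2D, rose with heat under salt from 1.20 ± 0.998 to 18.8 ± 4.10 TPM and from 0.853 ± 0.652 to 10.2 ± 5.81 TPM (SD, n = 4). Under salt plus drought they averaged 7.39 ± 7.22 and 6.32 ± 5.29 TPM without heat and 2.57 ± 2.34 and 2.75 ± 0.996 TPM with it, which did not pass the test (limma adjusted p = 0.561 and 0.643). The differences in log2 change were -4.38 and -3.22 (limma adjusted p = 0.0244 and 0.043). The first was lost without salt replicate 1 or 3, salt plus drought replicate 1 or 2, salt plus heat replicate 2 or 4 or triple stress replicate 4 (adjusted p of 0.0501 to 0.0883). The second was lost in 13 of 16 fits that left out 1 library, with adjusted p of up to 0.118. Salt plus drought replicate 2, at 17.83 and 14.09 TPM, was the highest of its group for both.

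Few changes in the share of a transcript within its gene were called. Among 8336 transcripts of 3703 gene models with 2 or more transcripts and at least 5 TPM in both groups, 12 shares rose and 14 fell (0.144% and 0.168%, 0.312% together), in 17 gene models. Of these 17, 1 was also called for its level. The largest change in percentage points was in TraesCS3A02G230600, on 3A, whose total was 22.1 ± 4.91 TPM in salt plus drought and 17.6 ± 2.83 TPM in the triple stress (SD, n = 4). Its first transcript made up 46.2%, 31.1%, 37.7% and 31.0% of the gene in salt plus drought replicates 1 to 4 and 100%, 75.3%, 100% and 82.6% in the triple stress (limma adjusted p = 0.0242). Its second transcript held the rest, so the major transcript differed between these groups. By group mean the first transcript was also major in control (68.95%), drought (76.2%), salt (75.8%), heat (60.5%) and heat plus drought (79.2%). In salt plus heat it averaged 45.8%. In TraesCS5A02G405000, on 5A, the second transcript made up 86.0%, 59.4%, 53.4% and 57.8% in salt plus drought and 100% in all 4 triple stress libraries (limma adjusted p = 0.0242).

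None of the 26 transcript shares was called in the same direction under salt, under drought or without either. Under salt 12 of the 26 were called in the opposite direction, in 6 gene models, and without salt or drought 5 were. Over all 8336 transcripts, heat had 29 calls under salt, 10 under drought and 27 without either. For the second transcript of TraesCS5A02G405000 the group means were 100% in salt and heat plus drought, 94.2% in control and 92.5% in drought. They were 64.2% in salt plus drought and 65.4% in salt plus heat, groups that were also low for most of the 18 gene models above. Heat, which was low for most of the 18 as well, averaged 85.1% here, with 67.5% to 100% in its libraries. Its change from control was not called (limma adjusted p = 0.654). A model of the 8 libraries alone gave 0 calls with limma, with 853 transcripts at an unadjusted p under 0.05. Without salt plus drought replicates 2 and 4 the 26 became 9 and 5, and without triple stress replicates 1 to 4 they became 4, 42, 13 and 14.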

How the data were processed

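Flag leaf RNA was sequenced from 8 groups of 4 libraries. The labels and the submitters' processing notes state that the authors used STAR for alignment and RSEM 1.3.3 for TPM, both against IWGSC 1.1. CASAVA and Trimmomatic are also named. The deposited TPM of 298774 transcripts were summed to 269428 gene models, and those with at least 1 TPM in 4 or more of the 8 libraries compared were tested as log2(TPM + 1), a scale that understates changes of low genes. A filter of this kind can pass gene models through 1 group alone. RSEM splits reads shared by subgenome copies, so values of single copies are estimates.

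Tests used limma 3.58.1 in R 4.3.3 (trend, two-sided, Benjamini-Hochberg over all tested), in 1 model of the 8 groups with 24 residual degrees of freedom. Transcript shares were tested as log2 ratios of a transcript to the rest of its gene, with 0.5 TPM added, for shares of 5% to 95%. Named gene models are the 2 largest rises and 2 largest falls past 0.05 in each comparison with a group mean of at least 5 TPM, without overlap in the main comparison, plus the longest run in each direction. Groups, lists and rules were chosen with earlier results of these data known. Per-sample columns not used numbered 0, and a RefSeq table of 155467 genes matched 0 identifiers. The test of the main comparison was tried first on simulated data, with 100 changes of each size in gene models of at least 5 TPM. It called 51 of the 2-fold and 97 of the 4-fold changes, and 4 unchanged gene models. A gene model without a call may thus still have changed. Alternatives covered pseudocount, filters, scaling, library weights, replicate blocks and leaving out libraries.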

Additional observations from a re-analysis of the deposited data

Results flagged for a closer look

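Heat changes differed between backgrounds in tests of the difference itself. Against heat under salt 121 gene models differed, against heat without salt or drought 136, and against heat under drought 22. Among those named, the log2 differences from heat under salt were 3.45 for TraesCS4A02G438500, 3.40 for TraesCS5B02G408700LC, -4.38 for TraesCS2A02G394900 and -3.22 for TraesCS2D02G392900. From heat under drought they were 1.96 for TraesCS5B02G408700LC, -4.59 for TraesCS4A02G106000 and -2.88 for TraesCS4B02G206700. The call of TraesCS4A02G106000 (limma adjusted p = 0.0452) was lost in 14 of 16 fits that left out 1 library. From heat without salt or drought they were 5.22 for TraesCS5B02G408700LC, 4.19 for TraesCS4A02G458800LC, -3.64 for TraesCS1D02G357200LC and -3.34 for TraesCS7D02G249800.

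Of 20 sets of 4 values from salt plus drought or the triple stress, 1 held a library far from the other 3. It was salt plus drought replicate 2, with 52953 gene models at 1 TPM or more, and the others had 50717 to 51099. Chance flags about 1 in 20. The other groups were not examined in this way. Salt replicate 3, used in the changes under salt, held 21.6% of its TPM in low confidence gene models and 6.71% in unplaced ones. The other salt libraries held 9.24% to 9.83% and 1.76% to 2.39%.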

How the results depend on the processing

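No call of the main comparison turned its direction under any alternative run. Its 446 calls became 908 with median-of-ratios scaling, 1312 with quantile normalisation, 1303 in a model of the compared groups alone and 3686 with estimated library weights. In the same order, the 121 differences from heat under salt became 302, 427, 201 and 1980, and the 22 from heat under drought 43, 39, 590 and 4054. The 136 from heat without salt or drought became 89 in a model of those groups alone and 670 with weights. Differences from heat under drought numbered 14 and 7 at pseudocounts of 0.1 and 5 TPM, and 12 with any value above 0 admitted. Leaving out control replicate 3, heat replicates 1 and 3 and salt replicate 3 together, chosen after seeing the data, gave 916, 263 and 979 for the main comparison and the differences under salt and drought. Transcript shares called fell from 26 to 0 in the model of the compared groups alone (limma, 853 at an unadjusted p under 0.05).

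Leaving out 1 library at a time gave 210 to 347 calls in the main comparison, 37 to 134, 0 to 62 and 73 to 149 for the differences from heat under salt, under drought and without either, and 4 to 42 for transcript shares. The cause of these shifts was not tested.

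A replicate block by the number in the source names was not used in the report. The labels do not say that a number marks a shared plant, bench or day. In 4 pairs of salt plus drought and triple stress libraries with the same number, deviations correlated at r of -0.07 to 0.17. Pairs with different numbers gave -0.23 to 0.27, so these values cannot decide whether a block is needed. With that block the counts were 454, 123, 20, 112 and 27 in this order. With a replicate block by the number in the titles they were 200, 21, 0 (limma, 4534 at an unadjusted p under 0.05) and 73. Over the 15 named results, 308 of 395 values kept their call, 87 lost it and 0 reversed. Depth is unknown, and 4 libraries a group limit the precision.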
